A study of Saccharomyces cerevisiae with 9 samples.

Results

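Bisphenol A (BPA), the monomer of polycarbonate plastics, was given to Saccharomyces cerevisiae cultures at 50 mg/L, and their transcripts were set against those of cultures that received only the solvent. The comparison uses 6 of the 9 arrays of the series: 3 cultures with 50 mg/L BPA dissolved in ethanol and 3 control cultures with an equal volume of ethanol, all exposed for 180 min from mid-exponential growth in YPD, a rich glucose medium. The other 3 arrays are cultures given 300 mg/L BPA over the same time, which are used below only to set a second dose beside the first. The labels name neither strain nor mating type, and every group, control included, carries the ethanol. Of 10928 probe sets on the array, 5498 belong to S. cerevisiae by the platform annotation, and keeping for each gene the probe set with the highest mean over the 9 arrays left 5449 genes, all of which were tested. Between 5363 and 5374 of them lay above background on each of the 6 arrays, the background being the 95th percentile of probe sets made for Schizosaccharomyces pombe, a distant yeast. The values are log2 expression values, scaled so that the arrays have like distributions. A difference is therefore a difference in share of the measured transcripts, and in a bulk culture fewer cells expressing a gene and less RNA per cell cannot be told apart.

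Yeast answers many lipophilic compounds through the pleiotropic drug resistance (PDR) network, in which the zinc-finger activators Pdr1 and Pdr3 switch on genes for ATP-binding cassette (ABC) exporters, which pump such compounds out of the cell, and for enzymes and transfer proteins that alter membrane lipids. PDR5, SNQ2 and YOR1 encode the best known of these exporters. Yeast also makes acetate and ethyl esters from alcohols and activated acids, and turns amino acids into fusel alcohols by the Ehrlich pathway.

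The question is which transcripts respond to the lower dose. In the limma fit over all 9 arrays, 0 of 5449 genes passed an adjusted p of 0.05, which is a percent called of 0.0. The smallest adjusted p was 0.302, for EEB1. At an unadjusted p under 0.05 there were 196 genes that were higher at 50 mg/L, or 3.6% of those tested, and 193 that were lower, or 3.54%. The 3 values at 50 mg/L lay wholly above the 3 control values for 330 genes, 6.06% of all, and wholly below them for 354, or 6.5%. Against the same control arrays, 2872 genes, or 52.7%, passed the adjusted threshold at 300 mg/L, 27.5% higher and 25.2% lower, and 52.8% differed between 300 and 50 mg/L. With no gene past that threshold at 50 mg/L, the values below are levels and differences on the log2 scale, and an unadjusted p serves to order them. A p that misses the threshold does not show that the levels were equal.

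Culture 2 of the 50 mg/L group stood apart from the other 5 arrays before any gene was considered. The first principal component of the 6 arrays carried 54.9% of the variance and placed this array at 15.4, with the other 5 between -7.53 and 2.08. Its levels followed the coding length of the genes, which were split by length into 5 groups of like size. Set against the control mean, its median gene lay 0.18 lower in the group with the shortest coding length (51 to 660 bases) and 0.29 higher in the group with the longest (2109 to 14733 bases). Over all genes the rank correlation of its difference from the control mean with coding length was 0.60. In 50 mg/L cultures 1 and 3 that correlation was 0.05 and 0.25, and in the control cultures it was -0.23, 0.14 and 0.13. These are descriptions across genes within an array, and the genes share that array. The median gene varied with an SD of 0.13 between the 50 mg/L arrays and 0.07 between the control arrays. The 25S ribosomal RNA probe sets, 3' end minus 5' end, read 0.17, -0.53 and 0.07 on the log2 scale in 50 mg/L cultures 1 to 3, against 0.01, 0.09 and 0.18 in the controls, so culture 2 was the lowest of the 6 on this measure too. For the 18S probe sets the values were -1.04, -1.65 and -0.67 in the 50 mg/L cultures and -0.64, -1.02 and -0.82 in the control cultures. On the messenger RNA probe sets of ACT1 and TDH1 the order was the reverse, and 50 mg/L culture 2 was the highest of the 6. It read 0.75 and 0.33, and the other 5 arrays lay between 0.56 and 0.69 for ACT1 and between 0.11 and 0.32 for TDH1. The part of RNA integrity in the length trend was not tested.

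**Figure D1:**
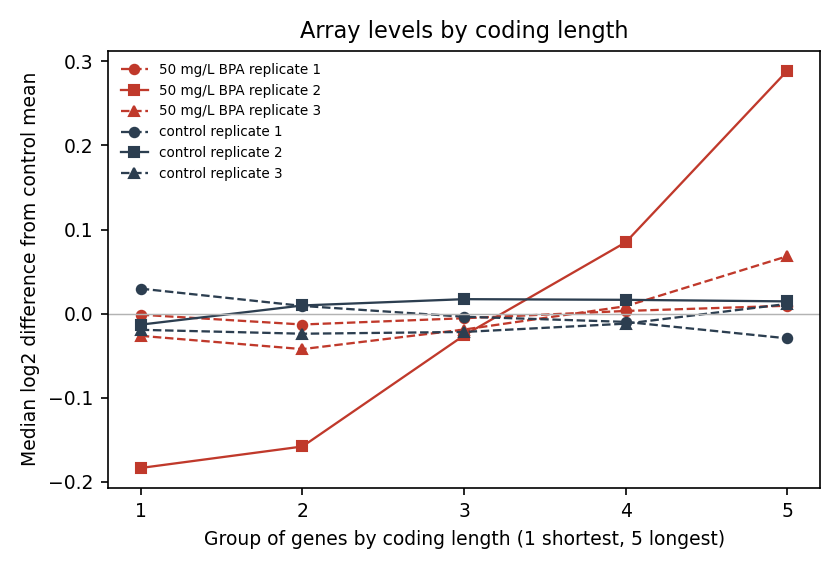
Median log2 difference from the control mean (vertical axis) for 5 groups of genes by coding length, shortest to longest (horizontal axis), 1 line per array, red for 50 mg/L BPA and dark for control. The line of 50 mg/L culture 2 runs from 0.18 below to 0.29 above the control mean, while the lines of the other 5 arrays stay within 0.07 of it.

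The trend reaches the list of genes at an unadjusted p under 0.05. In the longest group 101 genes were higher at 50 mg/L and 1 was lower, and in the shortest group 18 were higher and 64 lower. For this reason the difference of each gene below with an unadjusted p under 0.05, apart from 3 hexose transporter genes near background, is given again after a loess of each array's values on coding length was subtracted, a correction chosen after the trend was seen. After the correction, the rank correlation of the difference with length was 0.02, against 0.52 before. Without 50 mg/L culture 2 and without the correction it was 0.23, so values given below without that culture still follow length in part. After the correction 0 genes passed the adjusted threshold, with 168 higher (3.08%) and 151 lower (2.77%) at an unadjusted p under 0.05. Some genes named below for an unadjusted p under 0.05 kept it after the correction, and others did not. Among the latter, it was then 0.212 by limma for SNF3, 0.117 for PRE3, 0.0862 for MET4 and 0.0857 for DIP5. For AXL1, FRE6 and MRS4 it was 0.065, 0.0641 and 0.0629 by limma.

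Among the PDR genes, the 4 with an unadjusted p under 0.05 were all higher at 50 mg/L: YOR1, PDR5, PDR16 and RSB1. The list holds 22 measured genes, and 0 were lower at that p, beside 3.6% higher and 3.54% lower of all genes. In 9 of the 22 the 3 values at 50 mg/L lay above all 3 control values, and in 0 below them, beside 6.06% and 6.5% of all genes. The median difference of the list was 0.11, beside 0.00 for all genes, and it was 0.07, 0.15 and 0.13 in the 3 pairs of cultures with the same number. After the length correction the median was 0.04, with 4 genes higher and 1 lower at an unadjusted p under 0.05, beside 3.08% and 2.77% of all genes. The groups then did not overlap in 7 genes on the higher side and 3 on the lower, beside 5.4% and 5.23% of all genes. Without culture 2 the median was 0.08, with 3 higher and 1 lower, beside 1.23% and 1.41% of all genes.

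PDR5 and YOR1 encode the exporters of the list at that p. PDR5, the main ABC drug pump of the plasma membrane (YOR153W, 4536 bases), read 11.28, 11.49 and 11.24 in the 50 mg/L cultures, against 10.81, 10.70 and 11.02 in the control cultures. The groups did not overlap, and culture 2 was the highest. The difference was 0.49 ± 0.11 (SE), a 1.41-fold higher level, with an adjusted p of 0.581, and 0.33 after the length correction.

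YOR1, an ABC exporter first known for oligomycin resistance (YGR281W, 4434 bases), read 9.45, 9.81 and 9.63 in the 50 mg/L cultures and 9.19, 9.07 and 9.19 in the control cultures. All 3 values at 50 mg/L were above all control values, again with culture 2 on top. The difference was 0.48 ± 0.10, or 1.39-fold, and 0.32 after the length correction. The difference of YOR1 from control at 300 mg/L was 0.49 ± 0.10, with an adjusted p of 0.00191, and the test of 300 against 50 mg/L gave an adjusted p of 0.915.

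Other long exporter genes were nearer to control. SNQ2, an ABC exporter of mutagens such as 4-nitroquinoline oxide (4506 bases), read 9.83, 10.17 and 9.93 at 50 mg/L and 9.77, 9.60 and 9.93 in control cultures. Its groups overlapped, and its difference of 0.21 ± 0.12 became 0.05 after the length correction. PDR15 and PDR10, close relatives of PDR5, had differences of 0.00 ± 0.17 and -0.04 ± 0.11, which became -0.17 and -0.21 after the correction. All of these rose at 300 mg/L, SNQ2 by 0.90, PDR15 by 0.82 and PDR10 by 1.32 on the log2 scale.

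The lipid genes PDR16 and RSB1 are of middle length, in the group of 1032 to 1470 bases, where the median gene of culture 2 lay 0.03 below the control mean. PDR16, a phosphatidylinositol transfer protein (YNL231C, 1056 bases), read 9.09, 9.10 and 9.11 at 50 mg/L and 8.87, 8.83 and 8.89 in control cultures. The 50 mg/L cultures lay within 0.02 of each other and above every control. The difference was 0.24 ± 0.06, or 1.18-fold, and 0.28 after the length correction. RSB1, a membrane protein that protects against sphingoid long-chain bases (YOR049C, 1065 bases), read 8.18, 7.96 and 7.81 at 50 mg/L and 7.78, 7.26 and 7.27 in control cultures. Culture 1 was the highest of its group in both groups, so that the lowest 50 mg/L value lay only just above the highest control value. The difference was 0.54 ± 0.24, or 1.46-fold, and 0.58 after the length correction. With the replicate number as a block and the length correction together, RSB1 had an adjusted p of 0.0366, as 1 of 3 genes, or 0.0551% of those tested, that passed in that fit.

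ICT1, an acyltransferase of lysophosphatidic acid, was 0.16 ± 0.11 higher at 50 mg/L, with no overlap between the groups. IPT1, which adds the last head group of the complex sphingolipids, differed by 0.10 ± 0.08, and the polyamine exporter gene TPO1 by 0.15 ± 0.09, again without overlap. Of the regulators, PDR1 differed by 0.12 ± 0.09 and by -0.01 after the correction. PDR3, a gene that Pdr3 itself activates, differed by 0.22 ± 0.12 without overlap, and by 0.11 after the correction. Some members of the list with large rises at 300 mg/L had differences near 0 at 50 mg/L. RPN4, the activator of proteasome genes, differed by 0.05 ± 0.16 at 50 mg/L and rose by 2.44 at 300 mg/L. The hexose transporter genes HXT9 and HXT11 differed by -0.01 ± 0.34 and -0.01 ± 0.30 at 50 mg/L and rose by 2.48 and 2.61 at 300 mg/L. Both have near-identical relatives, so their probe sets may read more than a single gene.

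**Figure D2:**
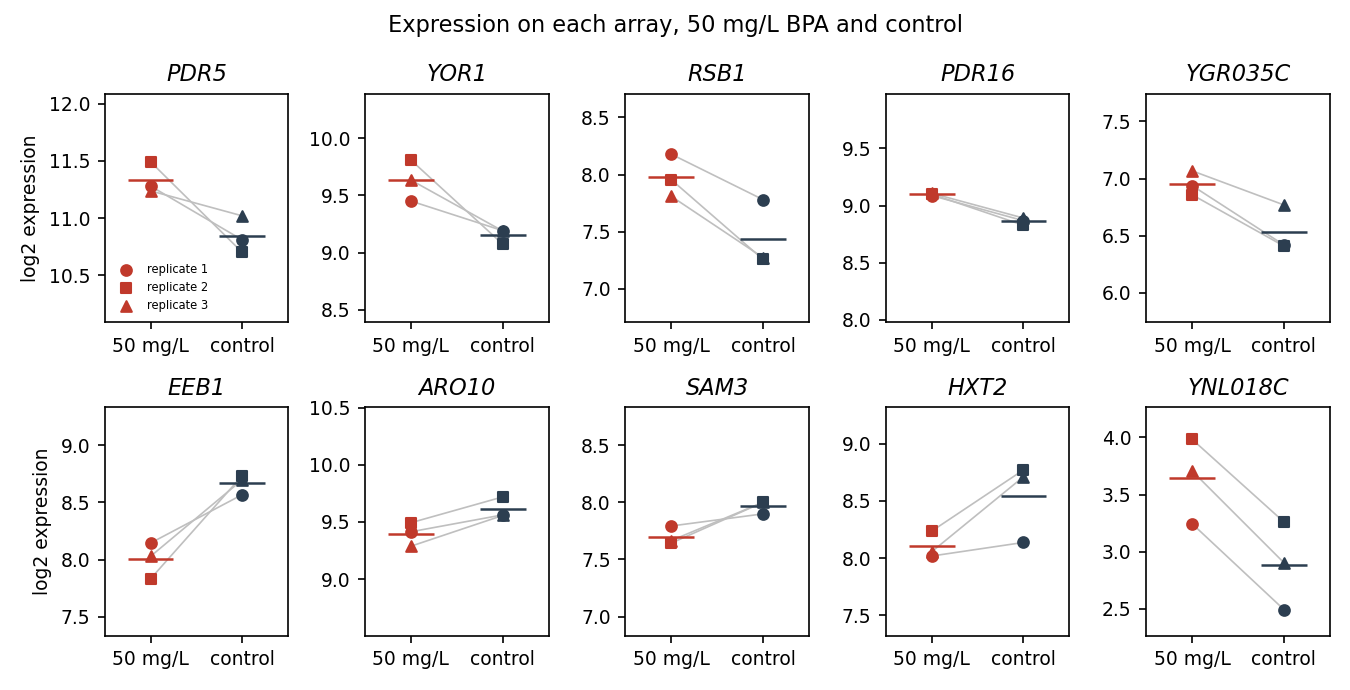
Expression on the log2 scale (vertical axis, 2 units high in every panel) of 10 genes on each array, with 50 mg/L BPA on the left and control on the right, grey lines joining cultures with the same number and bars at the group means. PDR5, YOR1, RSB1, PDR16 and YGR035C lie higher in all 3 cultures at 50 mg/L than in any control, EEB1, ARO10 and SAM3 lie lower, and HXT2 and YNL018C overlap.

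The gene with the largest difference below control was EEB1, an acyl-coenzyme A:ethanol acyltransferase that makes medium-chain ethyl esters (YPL095C, 1371 bases). It read 8.14, 7.83 and 8.03 at 50 mg/L, against 8.57, 8.73 and 8.70 in control cultures. The highest 50 mg/L value was well under the lowest control value. The difference was -0.67 ± 0.10, a 1.59-fold lower level, with an unadjusted p of 5.54e-05. It was -0.66 after the length correction and -0.58 without culture 2. EEB1 fell by 1.34 ± 0.10 at 300 mg/L (adjusted p 6.16e-06), and the 2 doses differed with an adjusted p of 0.000394.

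The list of ester synthesis and Ehrlich pathway genes had 20 measured members, of which 0 were higher and 2 lower at an unadjusted p under 0.05, beside 3.6% and 3.54% of all genes, with a median of -0.01. The second gene was ARO10, the phenylpyruvate decarboxylase of the Ehrlich pathway, which read 9.41, 9.49 and 9.29 at 50 mg/L and 9.56, 9.72 and 9.56 in control cultures. Its groups did not overlap, and the difference was -0.21 ± 0.08, or -0.26 after the length correction, against -1.62 ± 0.08 at 300 mg/L. EHT1, the paralogue of EEB1 with the same reaction, differed by -0.05 ± 0.10, and ATF1, the main alcohol acetyltransferase, by 0.03 ± 0.08. ARO9, the aminotransferase that precedes ARO10 in the pathway, differed by -0.10 ± 0.09.

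The rule for naming genes by size took the 10 largest differences in each direction among genes with an unadjusted p under 0.05, no overlap and levels above background in the higher group. Besides RSB1, PDR5 and YOR1, those higher at 50 mg/L were UBP15, YGR109W-B, YML054C-A, POL4, YGR035C, MOH1 and RAD26, with differences from 0.39 to 0.49. UBP15, a ubiquitin-specific protease (3693 bases), read 7.87, 8.65 and 7.94 at 50 mg/L and 7.63, 7.67 and 7.69 in control cultures. Culture 2 was 0.75 above the mean of the other 50 mg/L cultures, and without it the difference of 0.49 ± 0.17 became 0.24, while the length correction gave 0.35. RAD26, a DNA-dependent ATPase of transcription-coupled repair (3258 bases), read 6.27, 6.72 and 6.33 against 6.07, 6.05 and 6.03 in controls, again with culture 2 highest, and its difference was 0.39 ± 0.11, or 0.26 after the length correction and 0.25 without culture 2. POL4, the DNA polymerase of end joining (1749 bases), was higher by 0.43 ± 0.12, and by 0.40 after the correction. YGR109W-B, a Ty3 retrotransposon reading frame whose genomic copies are near-identical (4645 bases), was higher by 0.45 ± 0.17. After the correction its difference was 0.28, with an unadjusted p of 0.0799 by limma.

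The short genes in this set kept their size after the correction. YGR035C, an uncharacterized reading frame (351 bases), read 6.94, 6.86 and 7.07 at 50 mg/L and 6.42, 6.41 and 6.77 in control cultures. The difference was 0.42 ± 0.12 and 0.48 after the correction. YGR035C rose by 2.92 ± 0.12 at 300 mg/L (adjusted p 1.31e-07). MOH1, a gene linked to stationary phase survival (417 bases), was higher by 0.40 ± 0.15 and by 0.46 after the correction. YML054C-A, a reading frame of 159 bases, was higher by 0.43 ± 0.10, and by 0.45 after the correction, at levels of 2.95, 2.88 and 2.91 at 50 mg/L and 2.58, 2.60 and 2.27 in control cultures, not far above the background of the array.

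Besides EEB1, the genes named as lower were YHR214C-E, YNR075C-A, CIT3, PUN1, IMP2, YNR061C, SNG1, AQY1 and YOR376W-A, with differences from -0.50 to -0.35. SNG1, a membrane protein named for resistance to nitrosoguanidine, read 7.00, 6.78 and 6.85 at 50 mg/L and 7.33, 7.12 and 7.29 in control cultures. The groups did not overlap, and the difference was -0.37 ± 0.10 and -0.39 after the correction. SNG1 stood on the other side of control at 300 mg/L, higher by 0.43 ± 0.10 (adjusted p 0.00485), and the 2 doses differed with an adjusted p of 0.000134. CIT3, the mitochondrial methylcitrate synthase, was lower by 0.44 ± 0.14 both before and after the correction, at 3.24, 2.89 and 3.02 against 3.54, 3.57 and 3.36 in controls. PUN1, a plasma membrane protein (792 bases), IMP2, a subunit of the mitochondrial inner membrane peptidase (534 bases), and YNR061C (660 bases) were lowest in culture 2, and without that culture their differences of -0.44, -0.41 and -0.39 became -0.26, -0.18 and -0.19. After the correction they were -0.36, -0.33 and -0.31. AQY1, a water channel of spores, read 3.84, 3.77 and 3.57 against 4.36, 3.92 and 3.96 in controls, a difference of -0.35 ± 0.12, or -0.30 after the correction. The very short reading frames YHR214C-E (300 bases), YNR075C-A (93 bases) and YOR376W-A (156 bases) had differences of -0.50, -0.48 and -0.35, and of -0.45, -0.49 and -0.33 after the correction.

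YNL018C, an uncharacterized reading frame, had the largest difference above control of any gene and was the only gene, 0.0184% of those tested, past the threshold when the replicate number was fitted as a block. It read 3.25, 3.98 and 3.71 at 50 mg/L and 2.49, 3.26 and 2.90 in control cultures. The groups overlapped narrowly, between 50 mg/L culture 1 and control culture 2, but in each numbered pair the 50 mg/L culture was higher, by 0.75, 0.72 and 0.80. The difference was 0.76 ± 0.20 without the block (adjusted p 0.581), and with the block its SE was 0.08 and its adjusted p 0.0153. After the length correction the difference was 0.72. With the block and pair 2 left out, the difference was 0.78 and the adjusted p by limma 0.238. At 300 mg/L the difference from control was 0.32 ± 0.20 (adjusted p 0.219).

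**Figure D3:**
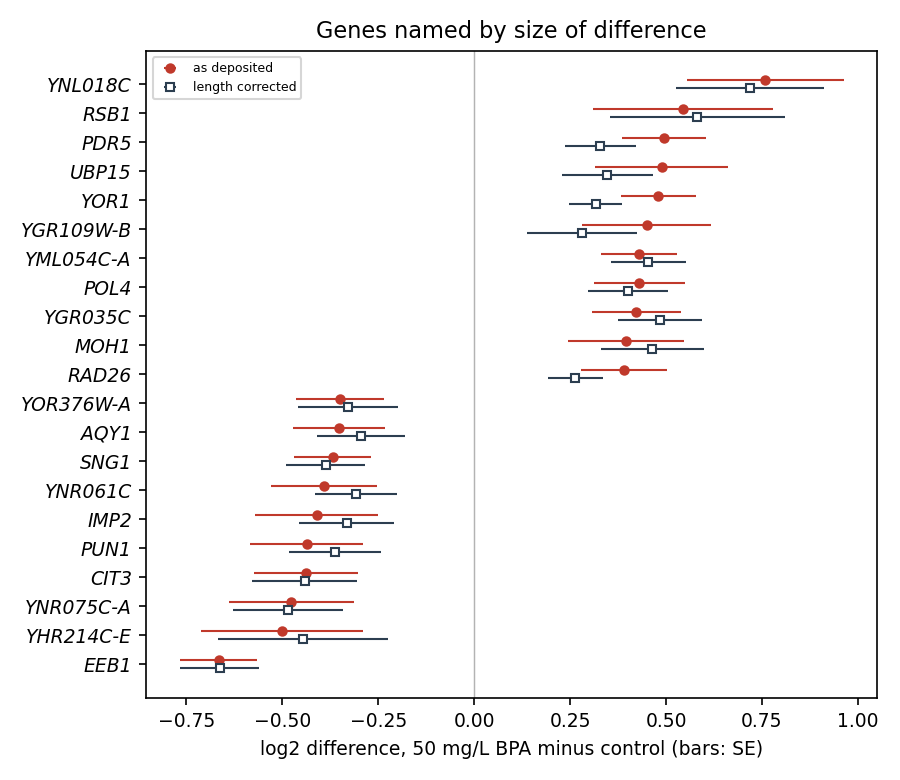
Log2 difference of 50 mg/L BPA from control (horizontal axis, bars are SE) for the genes named by size and YNL018C (vertical axis), as deposited in red and after the length correction in dark outline. UBP15, PDR5, YOR1, YGR109W-B and RAD26 lie nearer to 0 after the correction, and EEB1 lies at -0.67 and -0.66.

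Genes of sulfate assimilation, methionine and S-adenosylmethionine (SAM), the methyl donor made from methionine, included SAM3, MET14, SAM1 and MMP1 among the lower genes. Of 34 measured, 1 was higher and 4 were lower at an unadjusted p under 0.05, beside 3.6% and 3.54% of all genes, and the list median was -0.02, with -0.02, -0.06 and -0.04 in the 3 pairs. SAM3, the high-affinity SAM permease, read 7.79, 7.64 and 7.67 at 50 mg/L and 7.90, 8.00 and 8.00 in control cultures. Its groups did not overlap, and its difference was -0.27 ± 0.07 and -0.30 after the length correction. MET14, the adenylylsulfate kinase, differed by -0.25 ± 0.09 and SAM1, a SAM synthetase, by -0.22 ± 0.10, both without overlap. MMP1, the S-methylmethionine permease, differed by -0.24 ± 0.10 with overlap. The gene above control was MET4, the activator of the sulfur genes, at 0.23 ± 0.10. After the correction MET14, SAM1, MMP1 and MET4 differed by -0.17, -0.20, -0.27 and 0.17, and 0 genes of the list were higher and 3 lower at that p, beside 3.08% and 2.77% of all genes. Without culture 2, MET14 differed by -0.15, and 0 genes of the list were higher and 2 lower, beside 1.23% and 1.41%. SAM3 fell by 0.32 ± 0.07 at 300 mg/L, while MMP1 and MET14 rose by 0.47 ± 0.10 and 0.29 ± 0.09.

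The hexose transporters and glucose sensors gave 2 genes higher and 4 lower of 20 measured at an unadjusted p under 0.05, beside 3.6% and 3.54% of all genes, with a list median of 0.04. After the length correction 1 was higher and 4 were lower, beside 3.08% and 2.77%, and without culture 2 there were 0 higher and 4 lower, beside 1.23% and 1.41%. HXT2, a glucose transporter of high affinity, named after its values were seen, read 8.02, 8.24 and 8.06 at 50 mg/L and 8.14, 8.77 and 8.71 in control cultures. Control culture 1 lay among the 50 mg/L values, so the groups overlapped. The difference was -0.44 ± 0.15, or 1.35-fold lower, and -0.45 after the correction. HXT2 at 300 mg/L rose by 1.19 ± 0.15 (adjusted p 0.000138). HXT3, a low-affinity transporter used when glucose is plentiful, read 11.46, 11.61 and 11.48 at 50 mg/L and 11.13, 11.29 and 11.44 in control cultures, a difference of 0.23 ± 0.09 without overlap, and 0.20 after the correction. SNF3, the sensor of low glucose (2655 bases), was higher by 0.18 ± 0.07, and by 0.08 after the correction. The other genes below control were HXT10, HXT13 and HXT14, which are barely expressed. HXT14 was not above background on any of the 6 arrays. HXT10 and HXT13 were above background on 0 of 3 arrays at 50 mg/L and on 2 of 3 control arrays. By the background they were at least 1.05-fold and 1.08-fold lower at 50 mg/L, and the HXT13 probe set can also read related genes.

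Zinc genes showed 1 member higher and 4 lower of 19 at an unadjusted p under 0.05, beside 3.6% and 3.54% of all genes, with a median of -0.03. IZH4, a membrane protein of the progestin and adiponectin receptor family that zinc status controls, read 7.04, 6.98 and 6.96 at 50 mg/L and 6.75, 6.48 and 6.71 in control cultures. All 50 mg/L values were above all control values, and the difference was 0.35 ± 0.09, or 0.40 after the correction. ADH4, an alcohol dehydrogenase induced by zinc limitation, differed by -0.24 ± 0.09, ZRC1, which loads zinc into the vacuole, by -0.22 ± 0.09, and ZRT2, the low-affinity zinc permease, by -0.25 ± 0.11. In these 3 genes culture 2 read lowest, at 7.90 for ADH4, 9.22 for ZRC1 and 8.12 for ZRT2. Their differences were -0.15, -0.13 and -0.12 without culture 2, and -0.22, -0.21 and -0.24 after the length correction. VEL1, a gene of unknown function (621 bases), had the largest difference on the lower side of the list and read 2.37, 2.36 and 2.36 at 50 mg/L, against 2.90, 2.60 and 2.43 in control cultures. The 50 mg/L cultures of VEL1 were nearly level and below every control, but not far above the background of those arrays, which was 2.19, 2.18 and 2.17. Its difference was -0.28 ± 0.11, and the same without culture 2. After the correction it was -0.20, the groups overlapped, and the unadjusted p by limma was 0.0841. ZRT1, the high-affinity permease, differed by -0.05 ± 0.09 and the activator gene ZAP1 by 0.09 ± 0.10. After the correction 1 zinc gene was higher and 2 lower at that p, beside 3.08% and 2.77% of all genes, and without culture 2 there were 1 higher and 0 lower, beside 1.23% and 1.41%.

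Ribosome gene lists showed shifts that were smaller after the length correction. These lists differ from all genes in median coding length. The correction can therefore take out part of such a shift whatever its source, and the source was not tested. Of 128 cytosolic ribosomal protein genes, 115 had a difference below 0, beside 2782 of all 5449 genes. The members share the same arrays, so such a count is no test. At an unadjusted p under 0.05, 4 were lower and 0 higher, beside 3.54% and 3.6% of all genes. In 28 there was no overlap with control on the lower side, beside 6.5% of all genes. Their median coding length was 771 bases, against 1236 for all genes. The list median was -0.07, and in the 3 pairs it was 0.01, -0.11 and -0.08. After the length correction it was -0.01, with 2 genes lower at that p, beside 2.77% of all genes, and 9 lower without overlap, beside 5.23%. Without culture 2 it was -0.03, with 0 genes at that p in either direction, beside 1.23% higher and 1.41% lower of all genes. RPL13A, a protein of the large subunit, read 11.57, 11.25 and 11.53 at 50 mg/L and 11.62, 11.71 and 11.70 in control cultures, with culture 2 lowest. Its difference was -0.23 ± 0.09, or -0.18 after the correction and -0.13 without culture 2.

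Mitochondrial ribosomal protein genes, with a median length of 715.5 bases, had a median of -0.12. By pair it was -0.09, -0.27 and -0.01, and 67 of 72 members lay below 0, beside 2782 of all 5449 genes. At an unadjusted p under 0.05, 5 were lower and 0 higher, beside 3.54% and 3.6% of all genes. After the correction the median was -0.05 with 4 lower, beside 2.77% of all genes, and without culture 2 it was -0.04 with 1 lower, beside 1.41%. MNP1 and RSM24, both for proteins of the mitochondrial ribosome, had the smallest p. MNP1 was lower by 0.29 ± 0.11, by 0.21 after the correction and by 0.16 without culture 2, and RSM24 by 0.19 ± 0.07, 0.14 and 0.15. The respiratory chain and ATP synthase list, with a median length of 454.5 bases, had a median of -0.10 over 42 genes, -0.05 after the correction and -0.03 without culture 2. It had 1 lower and 0 higher members at an unadjusted p under 0.05, beside 3.54% and 3.6% of all genes. That member was CYC1, the gene for cytochrome c, lower by 0.23 ± 0.10. The difference of CYC1 was -0.12 without culture 2, and -0.17 after the correction, where its unadjusted p by limma was 0.0531. Ribosome assembly genes are long, with a median of 1722 bases, and leaned the other way. Their median was 0.08 over 95 genes, with -0.03, 0.23 and 0.04 in the pairs and 0 members at an unadjusted p under 0.05. It was 0.03 after the correction and 0.02 without culture 2. Set against the control mean, the list median was -0.16, 0.19 and 0.20 in 50 mg/L cultures 1 to 3. In control cultures 1 to 3 it was -0.14, -0.04 and 0.17, so culture 1 was the lowest and culture 3 the highest in both groups. Of these 95 genes, 79 rose at 300 mg/L past the adjusted threshold, beside 27.5% of all genes.

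**Figure D4:**
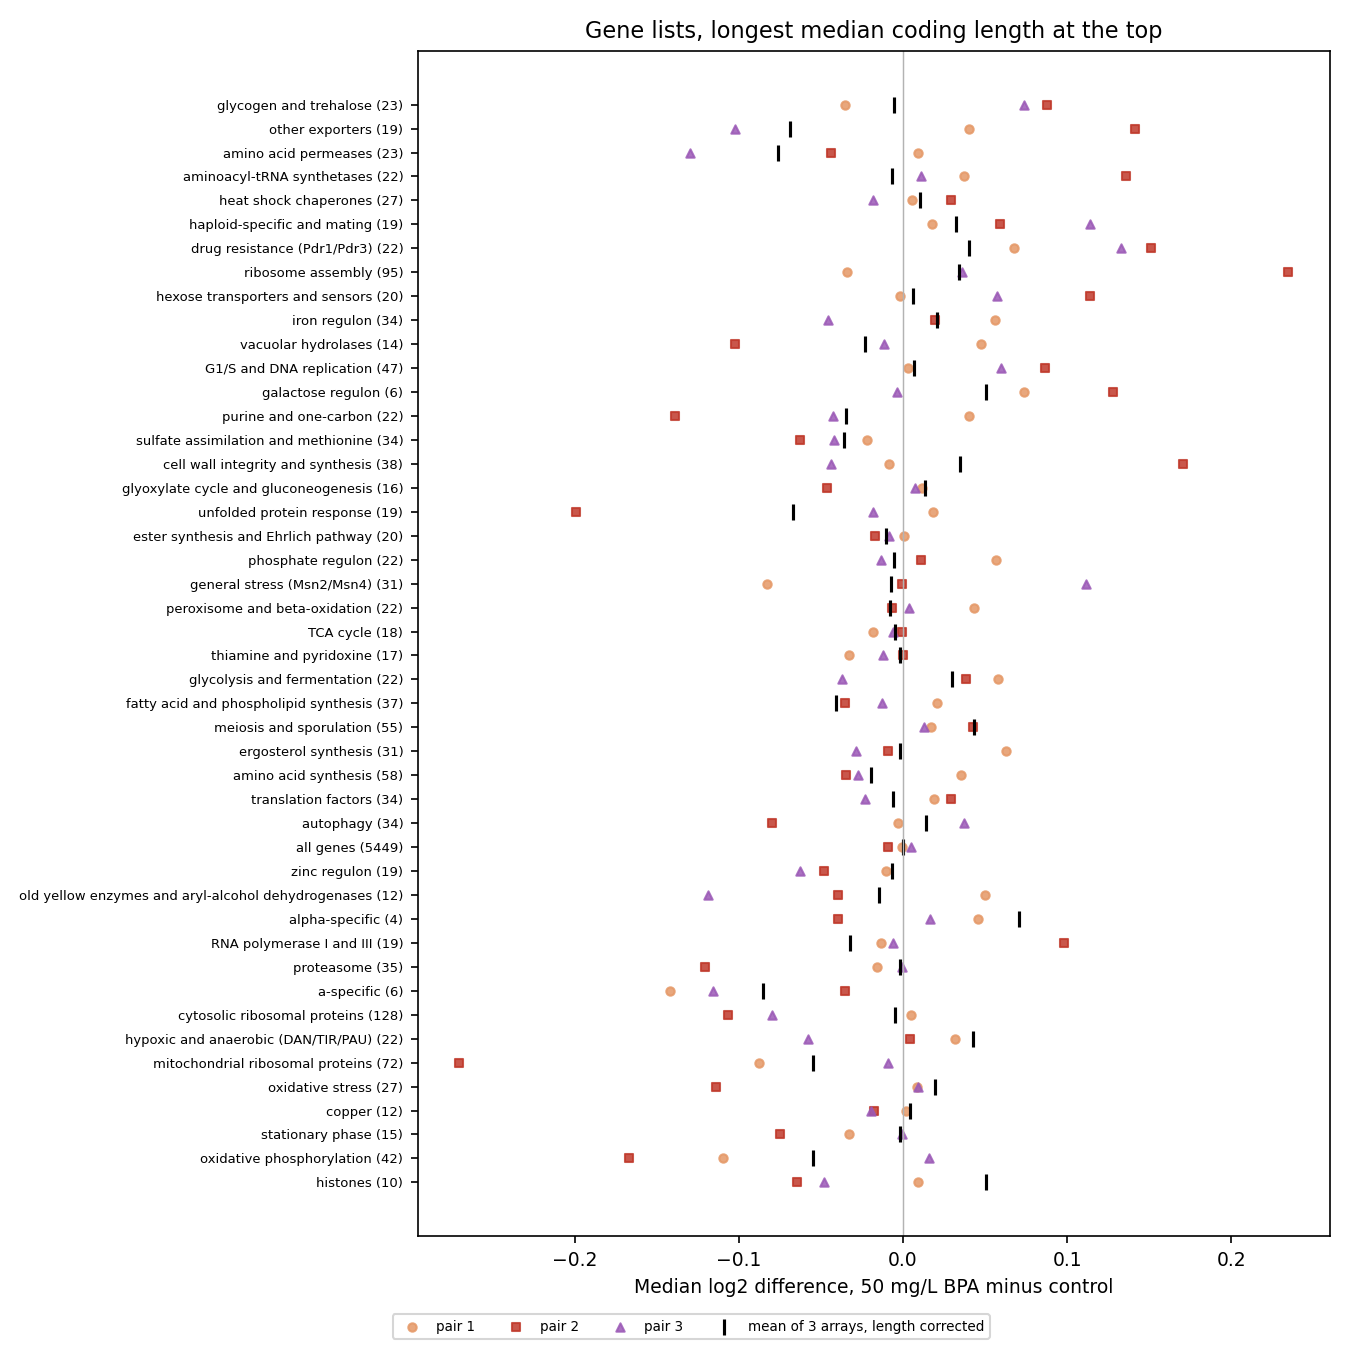
Median log2 difference of 50 mg/L BPA from control (horizontal axis) for 45 gene lists and all genes (vertical axis, with the number of measured genes), in each numbered pair of cultures and, as a black bar, for the mean of the 3 arrays after the length correction. Pair 2 holds the extremes, 0.23 for ribosome assembly and -0.27 for mitochondrial ribosomal proteins, and the Pdr1/Pdr3 list is 1 of 5 lists that lie above 0 in all 3 pairs, while 7 lie below 0 in all 3.

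Mating genes gave 3 members higher and 0 lower of 19 at an unadjusted p under 0.05, beside 3.6% and 3.54% of all genes. After the length correction 1 was higher and 0 lower, beside 3.08% and 2.77%, and without culture 2 there were 3 higher and 0 lower, beside 1.23% and 1.41%. FUS1, a cell fusion protein induced by pheromone, read 8.50, 8.60 and 8.69 at 50 mg/L and 8.35, 8.39 and 8.48 in control cultures, a difference of 0.19 ± 0.07 without overlap, and 0.18 after the correction. AXL1, the protease that matures a-factor (3627 bases), and FIG2, a cell wall adhesin of mating cells and likewise a long gene, differed by 0.25 ± 0.10 and 0.24 ± 0.10, by 0.11 and 0.07 after the correction, and by 0.13 and 0.15 without culture 2. The alpha-specific and a-specific markers had 0 of 4 and 0 of 6 members at that p.

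In the stress and protein quality control lists, counts at that p are set beside 3.6% higher and 3.54% lower of all genes, a share that is about 1 gene in each direction for lists of this size. Of 27 heat shock chaperone genes, 27 oxidative stress genes and 19 unfolded protein response genes, 0 had an unadjusted p under 0.05, and the list medians were 0.02, -0.03 and -0.03. HAC1, the activator of the unfolded protein response, read 11.01, 10.19 and 10.89 at 50 mg/L and 11.11, 11.12 and 10.98 in control cultures. Culture 2 alone was far below the rest, and the difference of -0.37 ± 0.17 became -0.12 without it. The general stress list had 1 of 31 genes higher, MOH1, and the proteasome list 1 of 35 lower, PRE3, a catalytic core subunit, by 0.18 ± 0.08, or by 0.11 after the length correction. MOH1 is described above. Glycolysis and fermentation genes had 0 of 22 and glycogen and trehalose genes 0 of 23 at that p.

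Iron and sporulation genes rose widely at 300 mg/L and had shares near those of all genes, 3.6% higher and 3.54% lower, at an unadjusted p under 0.05 at 50 mg/L. Of 34 iron genes, 1 was higher and 2 were lower at that p, with a median of 0.01, and at 300 mg/L 27 rose past the adjusted threshold, beside 27.5% of all genes, with a median of 0.74. FRE6, a vacuolar metalloreductase, was higher by 0.21 ± 0.08, while the mitochondrial iron carrier MRS4 and the biotin permease VHT1 were lower by 0.22 ± 0.09 and 0.17 ± 0.07. After the correction the differences of FRE6, MRS4 and VHT1 were 0.14, -0.17 and -0.20. Of 55 meiosis and sporulation genes, 2 were higher and 2 lower at that p, against 38 that rose at 300 mg/L. SSP2, a sporulation gene needed for the outer spore wall, read 5.25, 5.10 and 5.31 at 50 mg/L and 4.91, 4.88 and 5.09 in control cultures, and HOP1, a protein of the meiotic chromosome axis, read 3.92, 3.73 and 3.75 against 4.10, 4.22 and 3.96. Neither gene's groups overlapped, and the differences were 0.26 ± 0.09 and -0.29 ± 0.08, or 0.29 and -0.33 after the correction.

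Other lists held isolated genes. CUP2, the copper-sensing activator of metallothionein genes, was lower by 0.28 ± 0.08 and by 0.19 after the correction. ERG3, a sterol desaturase, was higher by 0.24 ± 0.09 and ARE2, a sterol acyltransferase, lower by 0.24 ± 0.09, and after the correction these differences were 0.27 and -0.29. DIP5, the glutamate and aspartate permease, was higher by 0.20 ± 0.07 and ASN1, an asparagine synthetase, by 0.27 ± 0.10, and by 0.16 and 0.25 after the correction. Without culture 2 the difference of ASN1 was 0.17 and that of DIP5 was 0.26. MBP1, the DNA-binding subunit of a G1/S activator, was higher by 0.35 ± 0.12 and RFC5, a subunit of the replication clamp loader, lower by 0.31 ± 0.11. For MBP1 and RFC5 the differences were 0.26 and -0.27 after the correction, and 0.23 and -0.17 without culture 2.

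When limma weighted the arrays by their agreement, 31 genes passed the adjusted threshold, 14 higher and 17 lower, or 0.569% of those tested. The weight of 50 mg/L culture 2 was 0.17 and that of culture 3 was 4.02, so these calls lean on culture 3, and the estimation of the weights stopped before it converged. The 31 include EEB1 (adjusted p 0.00862), YOR1 (0.0272), and PDR5, PDR16, YGR035C, ARO10 and CUP2 (0.0452 each), SAM3 (0.0473) and POL4 (0.0475). RSB1 was not among them (0.112).

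Single cultures also differed from the others of their group, in both groups. More than 0.5 above or below the mean of the other 2 cultures at 50 mg/L lay 50 and 70 genes in culture 1, 69 and 108 in culture 2, and 31 and 23 in culture 3. For control cultures 1 to 3, set against the other 2 controls, these counts were 78 and 15, 6 and 19, and 27 and 29. HSP12, a membrane-stabilizing stress protein, read 9.48 in 50 mg/L culture 2, against 10.60 and 10.47 in 50 mg/L cultures 1 and 3. In the control cultures it read 11.12, 9.54 and 9.55, so 50 mg/L culture 2 was near control cultures 2 and 3. Its groups overlapped. DED1, an RNA helicase of translation initiation, read 10.23 in culture 2, against 9.40 and 9.54 in the other 50 mg/L cultures and 9.43 to 9.52 in control cultures. MCM10, a replication initiation factor, read 4.43, 5.36 and 5.67 at 50 mg/L and 5.25, 4.41 and 4.59 in control cultures. These genes are given as descriptions of single cultures.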

How the data were processed

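Total RNA was hybridised to 1-colour oligonucleotide arrays, 1 per culture. The authors deposited 1 log2 value per probe set and array. RMA, affy and limma are named in the submitters' processing notes, without versions. No hybridisation batch is given in the sources used here. Precision is limited by the number of arrays. Replicates are biological per the labels, with no word on separate starter cultures, so p-values measure only the spread between these samples.

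Of 10928 probe sets, 3683 had no gene here and 1 had several. Of 5449 genes, 47 had several probe sets, and for 118 the probe set used is marked as reading related sequences too. Names, loci and coding lengths come from the R64 RefSeq table. Background was the 95th percentile of 1746 Schizosaccharomyces pombe probe sets on the same array, and a fold against a group not above it is a bound, taken from the brighter group's mean and, on each dim array, the percentile or the measured value, whichever is higher.

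Differences were tested with limma 3.58.1 in R 4.3.3 (lmFit, contrasts, eBayes) over all 9 arrays, two-sided, with p-values adjusted over all genes by Benjamini-Hochberg and a threshold of 0.05. Errors are SEs of that fit. The pipeline was tested on simulated data with independent noise and the same spread in every group. These had no length trend and no deviant array, so that test does not cover such features. Length correction subtracted a loess with a span of 0.3, fitted on log2 coding length to each array's deviations from the gene means over all 9 arrays. The median deviation of each array was kept. Deviations from group means correlated at 0.42, 0.19 and 0.28 between arrays with the same number and at -0.43 to 0.18 otherwise. The numbers were taken to pair the cultures. These correlations come from the same values that the block fits, so they are no test of the pairing. For 50 mg/L culture 2 they were 0.19 with control culture 2 and 0.18 with control culture 3, which does not settle its partner.

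Genes were named by size (as described above), by the smallest p in each list (up to 2 a direction), by passing the threshold in either fit, or as the 5 farthest from the other cultures on each side; HXT2 and other list members given beside these were chosen after their values were seen. The comparison, lists and rule were chosen with earlier results of these data known. Promoter sequences were not used here. Figures were drawn with matplotlib 3.10.9.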

Additional observations from a re-analysis of the deposited data

How the results depend on the processing

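The count of 0 genes past the adjusted threshold became 1 with the replicate block, 31 with array weights and 3 (YNL018C, RSB1 and EEB1) with the length correction and the replicate block together, and was 0 in every other setting tried, each single culture left out included. The replicate block was fitted to the 6 arrays of this comparison alone, and it gave 571 genes with an unadjusted p under 0.05. Without the block there were 253 over the same 6 arrays, and 389 in the main fit over all 9. The count of 389 became 1410 with array weights and 156 with spike-in centring. It became 241 with the replicate block and pair 2 left out, and 130 with the length correction and without 50 mg/L culture 2. Leaving out single cultures gave 144 to 1201, with 144 (67 higher and 77 lower) without 50 mg/L culture 2, 167 without control culture 2 and 1201 without 50 mg/L culture 1. Genes without overlap numbered 684, and 906 to 2078 with a culture left out, since fewer values need to be apart. Centring moved the split: 156 higher and 237 lower with median centring, 9 higher and 147 lower with spike-in centring, where the median gene lay at -0.11. Of 2118 values of the 101 genes named by size, by list or by threshold, 4 changed sign: AGA2 to 0.0149 with array weights, and ATH1 to -0.0209 with array weights and to -0.00916 with the length correction, with and without the block. The 24 genes named only for a single culture are not in that count, and the difference of 15 of them changed sign in some setting, that of HSP12 between -0.15 and 0.64, DED1 between -0.01 and 0.41, RTC3 between -0.52 and 0.04 and SOL4 between -0.33 and 0.22. In 16 of the 101 genes a value passed the threshold in some setting. Of 675 list medians, 70 moved by more than the SD over the 50 mg/L cultures. The causes were not tested. The length correction and the settings that use it, and the block without pair 2, were chosen after seeing the data.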

Other observations

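The array also holds 166 control probe sets, and 3567 probe sets that are unnamed here or are a second probe set of a gene. Of these, 3 and 173 had an unadjusted p under 0.05 by limma, 0 passed the adjusted threshold, and the smallest adjusted p was 0.938.

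YBL100W-A, a Ty retrotransposon reading frame with many near-identical copies, read 9.91, 10.15 and 10.78 at 50 mg/L and 10.75, 9.07 and 9.25 in control cultures, so the groups overlapped and the highest values came from 1 culture in each group. YBL005W-A, another Ty reading frame, read 9.15, 9.36 and 9.97 at 50 mg/L and 9.73, 8.80 and 8.99 in control cultures, with the same cultures on top. The Ty3 frame YGR109W-B did not share this order: it read 7.11, 7.55 and 7.38 at 50 mg/L and 6.90, 6.72 and 7.07 in control cultures.

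RTC3, SOL4 and HSP12, picked from the genes farthest from the other cultures, were highest in culture 1 of each group. RTC3 read 7.92, 6.99 and 7.25 at 50 mg/L and 8.23, 7.48 and 7.21 in control cultures, and SOL4, a 6-phosphogluconolactonase, read 7.78, 6.92 and 7.20 against 8.00, 7.25 and 6.91.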
